A study of Canis lupus familiaris with 45 samples.

Results

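The 9 arrays described here are the baseline biopsies of a feeding study in dogs: subcutaneous fat taken at week 0, before any dog was allowed to eat freely. They were chosen by time point alone, as all arrays labelled week 0, and make up 9 of the 45 arrays of the series. All 42924 probe sets other than the Affymetrix control probe sets were considered. The question was how the genes of fat rank by signal at rest, how far dogs differ from each other, and whether the dogs assigned to each diet already differed.

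The study randomized 9 intact female beagles aged 4 years to free feeding or to rations that held their body weight, and took fat again at weeks 4, 8, 12 and 24. At week 0 the ad libitum group was dogs 2, 5, 6, 7 and 8 (n = 5) and the control group was dogs 1, 3, 4 and 9 (n = 4). All dogs ate the same commercial performance diet, and every sample was taken after an overnight fast. At week 0 "ad libitum" therefore names a later treatment, and both groups were untreated animals of 1 breed and 1 sex, with 1 array per dog.

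White fat stores triglyceride in adipocytes, which coat the lipid droplet with perilipins and release fatty acids from it through a chain of lipases. Adipocytes also secrete leptin, a hormone that reports fat mass, and adiponectin, a hormone that sensitizes other tissues to insulin. Around the adipocytes lie preadipocytes and fibroblasts, which make the collagen matrix, together with blood vessels, resident macrophages and a few lymphocytes. Under the skin of the trunk a biopsy can also reach the muscle that lies beneath.

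The labels gave subcutaneous adipose tissue, and adipocyte transcripts were strong on every array. All 19 measured genes of the 21 on the adipocyte list had a log2 signal above 4, the level taken here as detected, on all 9 arrays. Their median percentile among all probe sets was 98.9. The mean log2 signal of the adipocyte list was 12.58, 12.49, 12.80, 12.64 and 13.02 in ad libitum dogs 2, 5, 6, 7 and 8, against 12.29, 11.98, 12.92 and 13.13 in control dogs 1, 3, 4 and 9. The groups overlapped, and the 2 lowest arrays were both control arrays.

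Several arrays stood apart. Counts and list SDs that they could move are given with and without them, while the values of single genes are those of all 9 arrays. The first kind held skeletal muscle transcripts. The mean log2 signal of the 34 measured genes of the skeletal muscle list was 3.71, 10.94, 3.78, 13.94 and 7.81 in ad libitum dogs 2, 5, 6, 7 and 8, against 13.04, 14.46, 3.87 and 3.72 in control dogs 1, 3, 4 and 9. Muscle was therefore plain in ad libitum dogs 5, 7 and 8 and in control dogs 1 and 3, so that 5 of the 9 baseline arrays carried it. Over the whole series 10 of 45 arrays did, with no array in between: the lowest of the 10 had a mean of 7.26 and the highest of the others 5.01. Across genes, whose values are not independent, each baseline array had a median correlation with the other 8 between 0.954 and 0.979, lowest for control dog 3.

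The second kind was the baseline array of ad libitum dog 8. It was the lowest of the 9 arrays by more than 1 log2 unit on 1423 probe sets, where each of the other arrays was so on 14 to 104. It was also the highest by more than 1 on 253 probe sets, a number that control dog 3 exceeded with 399. In a principal component analysis, the first component held 47.5% of the variance and set the strong muscle arrays apart. The second component held 28.2%, and dog 8 lay at its end.

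The third kind bears only on the later weeks, which are used below to ask whether differences between dogs last. Of the 357 probe sets that differed between dogs at weeks 4 to 24 (1.57% of the 22690 tested), 25 had dogs 5 and 9 more than 2 log2 units apart at week 0. On all 25 of these the week-8 array labelled dog 5 lay nearer to the baseline value of dog 9, against 6, 7 and 10 of the 25 at weeks 4, 12 and 24. The week-8 array labelled dog 9 lay nearer to the baseline value of dog 5 on 15, against 1, 1 and 3. The baseline arrays of both dogs keep their labels here, and results on dogs are also given without the 2 week-8 arrays. Those 2 arrays were picked from these same data. A smaller p without them is therefore no independent support for a difference between dogs.

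RNA quality was compared between the groups through the control probe sets at the ends of 2 housekeeping transcripts. The 3′ minus 5′ log2 value of actin averaged 2.85 ± 1.00 in ad libitum dogs and 2.89 ± 1.16 in control dogs (SD, n = 5 and 4; two-sided exact permutation test, p = 0.937, adjusted p = 0.937). The same value for GAPDH averaged 2.44 ± 0.38 in ad libitum dogs and 2.30 ± 0.43 in control dogs (SD, n = 5 and 4; two-sided exact permutation test, p = 0.635, adjusted p = 0.937). With 5 and 4 dogs the smallest p this test can give is 0.00794. For actin, dog 8 had the lowest value of its group.

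**Figure D1:**
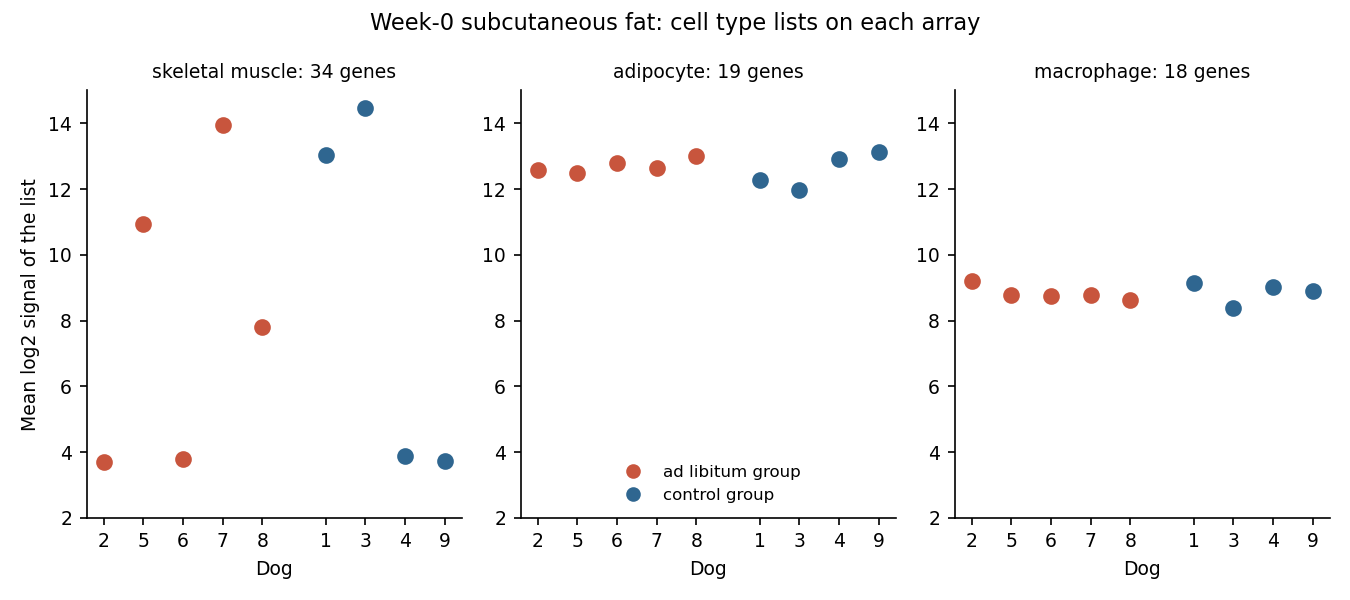
Mean log2 signal of the skeletal muscle, adipocyte and macrophage lists on each of the 9 week-0 arrays (y axis) by dog (x axis), ad libitum dogs left and control dogs right. The muscle mean runs between 3.71 and 14.46, while the adipocyte mean stays between 11.98 and 13.13 and the macrophage mean between 8.39 and 9.20.

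Of the 42924 probe sets, 18574 (43.3%) were above 4 on all 9 baseline arrays, 20188 (47.0%) on none, and 4162 on some. Ranks are ranks of array signal, which depends on the probes as well as on the transcript, so they place a probe set among others and do not measure how many copies of a transcript there are. Among genes with 1 symbol, the highest mean log2 signals were those of LOC607732 at 16.56 ± 0.07, of the ribosomal protein gene RPS20 at 16.45 ± 0.09 and of VIM, the intermediate filament vimentin of connective tissue cells, at 16.05 ± 0.10 (SD, n = 9).

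The fatty acid binding proteins FABP5 and FABP4, which carry fatty acids inside cells, had mean log2 signals of 16.00 ± 0.16 and 15.77 ± 0.16 over the 9 dogs. SCD, the desaturase that makes oleic acid, had 15.96 ± 0.18 on its brightest probe set. Its other 2 probe sets spread more widely, between 11.03 and 14.41 (12.74 ± 1.27) and between 10.14 and 13.45 (11.82 ± 1.31). RBP4, a retinol carrier secreted by fat and liver, had 15.83 ± 0.22. CIDEA, a lipid droplet protein best known from rodent brown fat, had 15.69 ± 0.19 and lay among the 20 genes with the highest signals. DCN, the collagen-binding proteoglycan decorin, had 15.76 ± 0.17. Also among these 20 was ALDOA, the glycolytic enzyme aldolase A, whose 3 highest values were those of ad libitum dog 7 and control dogs 1 and 3, at 16.18, 16.15 and 16.29, the dogs with the most muscle signal.

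Among genes with a mean log2 signal above 8, the smallest SD was that of TPT1. TPT1, a translationally controlled growth protein, had a log2 signal of 15.39 with an SD of 0.02 over the 9 dogs. RPS13 and RPS29, both of the small ribosomal subunit, had SDs of 0.04 and 0.05, and RPLP0 of the large subunit 0.06. NRGN, the neuronal protein neurogranin, had 8.13 ± 0.06. A small SD is one of array signal, and SCD was tight on its brightest probe set alone. Whether the strongest signals are compressed was not tested.

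Genes of fat that were near background are as much a part of the baseline. AZGP1, zinc-alpha-2-glycoprotein, a secreted lipid-mobilizing protein, had log2 signals of 3.28, 3.25, 3.26, 3.20 and 3.51 in ad libitum dogs 2, 5, 6, 7 and 8, against 3.36, 3.31, 3.30 and 3.30 in control dogs 1, 3, 4 and 9. All 9 values were below 4, and the other AZGP1 probe set lay between 2.22 and 2.37. The adrenergic receptor genes ADRB1 and ADRA2A, which control lipolysis, were below 4 on all arrays, and so were the brown fat regulator PRDM16 and the fatty acid desaturase FADS2.

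The other cell types formed a graded picture. Of the 14 measured fibroblast and preadipocyte genes, 13 were above 4 on all arrays, with a median percentile of 96.5. Endothelial genes (14 of 15 above 4 on all arrays) and macrophage genes (15 of 18) followed, with median percentiles of 85.6 and 86.3. By contrast 8 of 17 T and NK cell genes, 7 of 8 B and plasma cell genes and 12 of 17 epithelial and skin genes were above 4 on none of the 9 arrays. In whole tissue, fewer cells of a type and less RNA per cell cannot be told apart.

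The lists of metabolism and matrix can be placed the same way. The 31 measured oxidative phosphorylation genes and the 23 collagen and matrix genes had median percentiles of 98.4 and 98.1, and 31 and 22 of them were above 4 on every array. Fatty acid synthesis (19 genes) had a median percentile of 93.5, and the genes of lipid droplets, triglyceride synthesis and fatty acid uptake (26 genes) 94.6. Complement, the blood protein cascade that fat also makes, had 95.6 over 11 genes. Inflammatory cytokines and chemokines stood at 58.3 over 19 genes, of which 8 were above 4 on no array. The median over all 15115 genes with a probe set of their own was 57.5.

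Spread between dogs was measured as the SD of the log2 signal over the 9 arrays, for the 22690 probe sets that passed the filter on low values. The median SD was 0.434, and the 90th percentile 0.958. An SD above 1 was reached by 2042 probe sets (9.00%). Without the array of dog 8 this number was 1300 (5.73%), and over the 4 arrays without muscle signal it was 618. After each probe set was regressed on the muscle mean, 1833 (8.08%) kept a residual SD above 1. Within the groups the median SD was 0.460 in ad libitum dogs and 0.358 in control dogs. Without the muscle arrays these values were 0.257 in the 2 ad libitum dogs and 0.171 in the 2 control dogs that remained. SDs over fewer arrays are less precise and their median tends to be lower, here and for the lists below. Leaving out the muscle arrays also left out dog 8, so what each did to the spread was not separated.

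Muscle genes led the spread. The 15 genes with the largest SD (5.68 to 7.03) were ACTA1, TNNI2, TNNC2, MYL1, MYLPF, TTN, TNNT3, MYH1, MYL2, MYH2, ATP2A1, APOBEC2, MYOZ1, TNNT1 and ACTN3. Nearly all are parts of the sarcomere, the contractile unit of striated muscle, or of its calcium store. TNNC2, the fast-fibre troponin C, had log2 signals of 2.37, 14.79, 2.33, 15.88 and 11.32 in ad libitum dogs 2, 5, 6, 7 and 8, against 15.65, 15.87, 2.36 and 2.36 in control dogs 1, 3, 4 and 9. Ad libitum dogs 2 and 6 and control dogs 4 and 9 thus lay at background, where this defining muscle gene was not detected.

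The muscle signal was not of 1 composition. The fast-fibre myosin light chain MYLPF had 13.61 in ad libitum dog 5 and 9.49 in ad libitum dog 8. The slow-fibre light chain MYL2 was the other way round, with 8.58 in dog 5 and 9.41 in dog 8. A second slow-fibre light chain, MYL3, had 7.85 in dog 5 and 8.31 in dog 8. In ad libitum dog 7 and control dogs 1 and 3 both kinds were strong, with MYL2 at 15.34, 14.49 and 15.73. These values were chosen after they were seen and were not tested.

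Genes that sit on fat lists moved with the muscle as well. UCP3, a mitochondrial carrier of muscle and brown fat, had log2 signals of 4.50, 9.35, 4.18, 11.73 and 5.64 in ad libitum dogs 2, 5, 6, 7 and 8, against 10.65, 12.23, 4.11 and 4.04 in control dogs 1, 3, 4 and 9. FITM1, a protein that helps lipid droplets form in muscle, had 1.79, 1.80, 1.90, 9.44 and 2.79 in the same ad libitum dogs, against 7.90, 10.53, 1.80 and 1.80 in the control dogs. FITM1 was below 4 in ad libitum dogs 5 and 8, both of which had muscle signal. The largest SD of the heat shock list, 1.25 for CRYAB, a small chaperone of muscle and lens, followed the same arrays, with its highest values of 12.18 in ad libitum dog 7 and 13.04 in control dog 3.

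**Figure D2:**
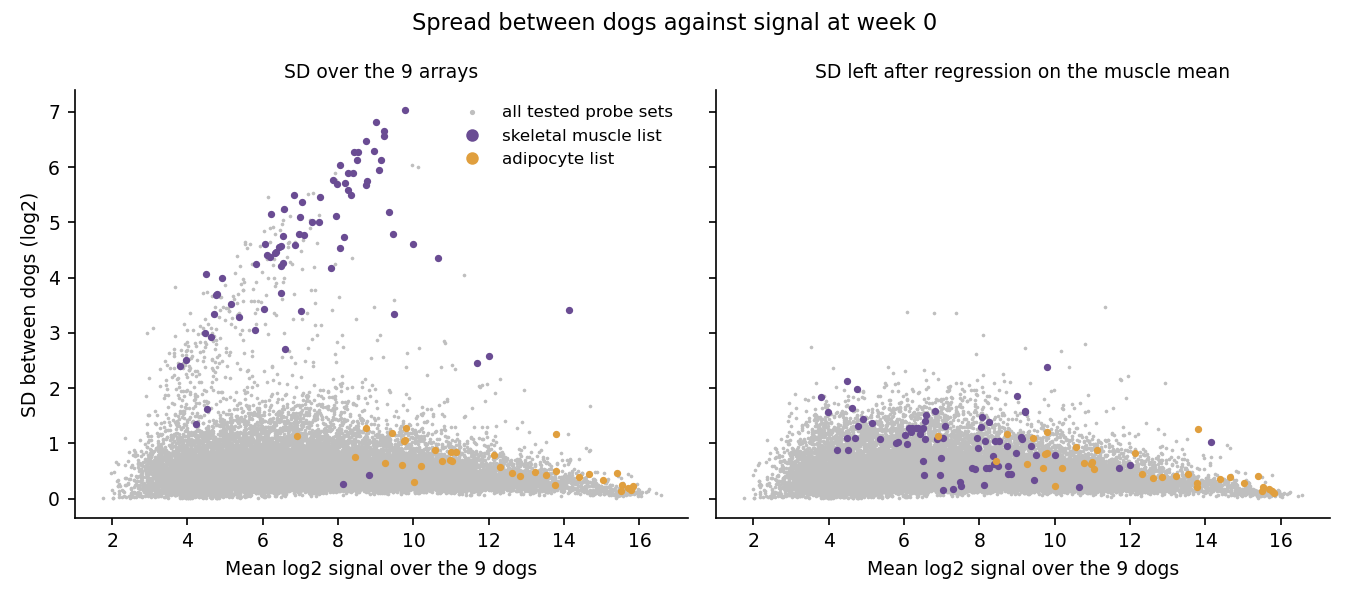
SD between the 9 dogs (y axis, log2) against mean log2 signal (x axis) for the 22690 tested probe sets, before (left) and after (right) regression on the muscle mean, with the muscle and adipocyte lists in colour. Muscle genes reach an SD of 7.03 on the left, and most adipocyte genes lie below an SD of 1 in both panels.

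Adipocyte genes had a median SD of 0.43 over their 19 measured members, beside 0.42 over all 9090 genes tested at their brightest probe set. After regression on the muscle mean the medians were 0.397 and 0.405. SDs above 1 were found for 4 of the 19, beside 755 of the 9090. These 4 were PLIN1, LEP, CD36 and ACVR1C, of which the last 2 were named after their values were seen. Without the array of dog 8 the count was 3 of 19, beside 481 of the 9090, and over the 4 arrays without muscle it was 2, beside 217.

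PLIN1, perilipin 1, guards the surface of the adipocyte lipid droplet against lipases. Its log2 signal was 9.39, 7.29, 10.39, 10.16 and 11.36 in ad libitum dogs 2, 5, 6, 7 and 8, against 9.18, 8.90, 10.20 and 11.37 in control dogs 1, 3, 4 and 9. Ad libitum dog 5 was lowest and ad libitum dog 8 and control dog 9 were highest, and the groups overlapped. The second PLIN1 probe set gave the same extremes, from 7.32 in dog 5 to 10.90 in control dog 9.

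LEP encodes leptin, and had log2 signals of 7.72, 8.33, 8.70, 7.81 and 10.48 in ad libitum dogs 2, 5, 6, 7 and 8, against 8.94, 6.69, 10.54 and 9.43 in control dogs 1, 3, 4 and 9. Control dog 3 was lowest and control dog 4 and ad libitum dog 8 were highest, and the groups overlapped.

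ADIPOQ, adiponectin, had log2 signals of 15.64, 15.71, 15.60, 15.52 and 15.66 in ad libitum dogs 2, 5, 6, 7 and 8, against 15.36, 14.94, 15.59 and 15.77 in control dogs 1, 3, 4 and 9. Only control dog 3, the array with the most muscle signal, was below 15.

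PPARG, the master transcription factor of adipocytes, was nearly level in the ad libitum dogs at 12.73, 12.80, 12.86, 12.76 and 12.87, against 11.97, 11.73, 12.64 and 13.19 in control dogs 1, 3, 4 and 9. The 2 low control values were those of the 2 control arrays with muscle. CD36, a fatty acid transporter, ranged from 11.27 in ad libitum dog 8 to 15.12 in ad libitum dog 5, and the other 7 arrays lay between 13.10 and 14.65.

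The fatty acid synthesis genes had their highest list mean in dog 8. It was 10.38 in that ad libitum dog and 9.34 to 9.94 on the other 8 arrays. PNPLA3, a lipase-like lipid droplet protein that responds to feeding in mice, had the largest SD of the list. Its log2 signal was 4.94, 6.80, 6.76, 7.66 and 10.69 in ad libitum dogs 2, 5, 6, 7 and 8, against 6.51, 5.49, 8.70 and 7.98 in control dogs 1, 3, 4 and 9. ACLY, which makes the acetyl-CoA for fatty acid synthesis and was named after its values were seen, had 14.35 in dog 8 and 12.71 to 13.64 elsewhere.

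Of the 12 measured thermogenic genes, 6 were above 4 on all 9 arrays and 4 on none. UCP1, the uncoupling protein that makes brown fat warm, was between 1.92 and 1.96 on 8 arrays and 5.87 in ad libitum dog 8. The 4 genes below 4 on all arrays, dog 8 included, were DIO2, TMEM26, PRDM16 and ELOVL3, which mark brown or beige fat in rodents. UCP1 and these 4 were named after their values were seen. UCP3 and CIDEA, both also linked above to brown fat, were above 4 on all 9 arrays. The array of dog 8 stood apart on many probe sets, and what part this played in its UCP1 value was not tested.

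Immediate early genes, which cells switch on within minutes of handling or stress, had a median SD of 0.71 over 14 tested members, beside 0.625 for genes of the glucocorticoid response and 0.496 for heat shock proteins. Without the array of dog 8 these medians were 0.728, 0.628 and 0.427, and over the 4 arrays without muscle 0.491, 0.452 and 0.236. FOS, the best known of them, had log2 signals of 13.05, 10.74, 14.38, 12.09 and 8.74 in ad libitum dogs 2, 5, 6, 7 and 8, against 13.01, 11.11, 10.50 and 13.39 in control dogs 1, 3, 4 and 9. The 2 extremes, dogs 6 and 8, were both in the ad libitum group. NR4A1, a nuclear receptor induced in the same way and named after its values were seen, ranged from 5.05 in ad libitum dog 8 to 9.66 in control dog 3.

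Transcripts of blood cells had large SDs, with a median of 1.49 over the 3 tested genes of the red blood cell and platelet list. It was 1.57 without the array of dog 8 and 2.15 over the 4 arrays without muscle. The median SD was 0.469 for endothelial genes and 0.452 for macrophage genes. PPBP, a platelet chemokine, had log2 signals of 12.97, 11.21, 8.02, 10.89 and 10.23 in ad libitum dogs 2, 5, 6, 7 and 8, against 9.14, 11.26, 11.57 and 11.89 in control dogs 1, 3, 4 and 9. ALAS2, the heme synthesis enzyme of red blood cell precursors, had 7.57, 7.44, 3.82, 6.42 and 8.79 in the same ad libitum dogs, against 6.38, 7.78, 7.49 and 9.33 in the control dogs. Ad libitum dog 6 was lowest for both. The means of the endothelial list lay between 8.78 and 9.33 and those of the macrophage list between 8.39 and 9.20.

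A few skin keratins were above 4 on 1 array. KRT10 and KRT1, keratins of the upper skin, had log2 signals of 6.45 and 4.76 in control dog 3 and were below 3 on the other 8 arrays. Both were named after their values were seen. JCHAIN, the joining chain of secreted antibodies, was 11.61 in control dog 4 and 8.36 to 9.80 elsewhere on its brightest probe set, and 6.09 to 7.33 over all dogs on another. EPCAM, an adhesion protein of epithelia, had 7.76, 5.93, 6.74, 8.32 and 6.77 in ad libitum dogs 2, 5, 6, 7 and 8, against 3.30, 6.12, 3.54 and 6.08 in control dogs 1, 3, 4 and 9. Control dogs 1 and 4 lay below all others, and the group difference of 2.43 had an SE of 1.39 in the limma fit described below. The B cell genes MS4A1, CD79A and CD79B were below 3 on all 9 arrays.

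SAA1, the acute phase protein serum amyloid A, had log2 signals of 7.16, 6.95, 8.20, 7.51 and 8.47 in ad libitum dogs 2, 5, 6, 7 and 8, against 10.12, 7.51, 10.84 and 7.96 in control dogs 1, 3, 4 and 9. Control dogs 1 and 4 stood above all others. CCL2, the chemokine that draws monocytes into fat, had 6.62, 7.69, 8.97, 7.58 and 6.96 in the ad libitum dogs, against 9.98, 7.95, 9.72 and 8.62 in the control dogs. The same 2 control dogs were highest for CCL2.

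Genes that comparisons at the later weeks of the same study had picked were also read at baseline. The 34 measured had a median SD of 0.792 and 10 had an SD above 1, which became 0.645 and 6 without the array of dog 8 and 0.574 and 9 over the 4 arrays without muscle. Their median difference between the groups was 0.06 log2 units. IGSF1, a membrane glycoprotein of the immunoglobulin family, had the largest SD of them. Its log2 signal was 2.89, 3.44, 2.86, 2.80 and 4.92 in ad libitum dogs 2, 5, 6, 7 and 8, against 3.59, 3.11, 7.53 and 7.11 in control dogs 1, 3, 4 and 9. Control dogs 4 and 9 and ad libitum dog 8 were above 4 and the other 6 dogs below it.

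**Figure D3:**
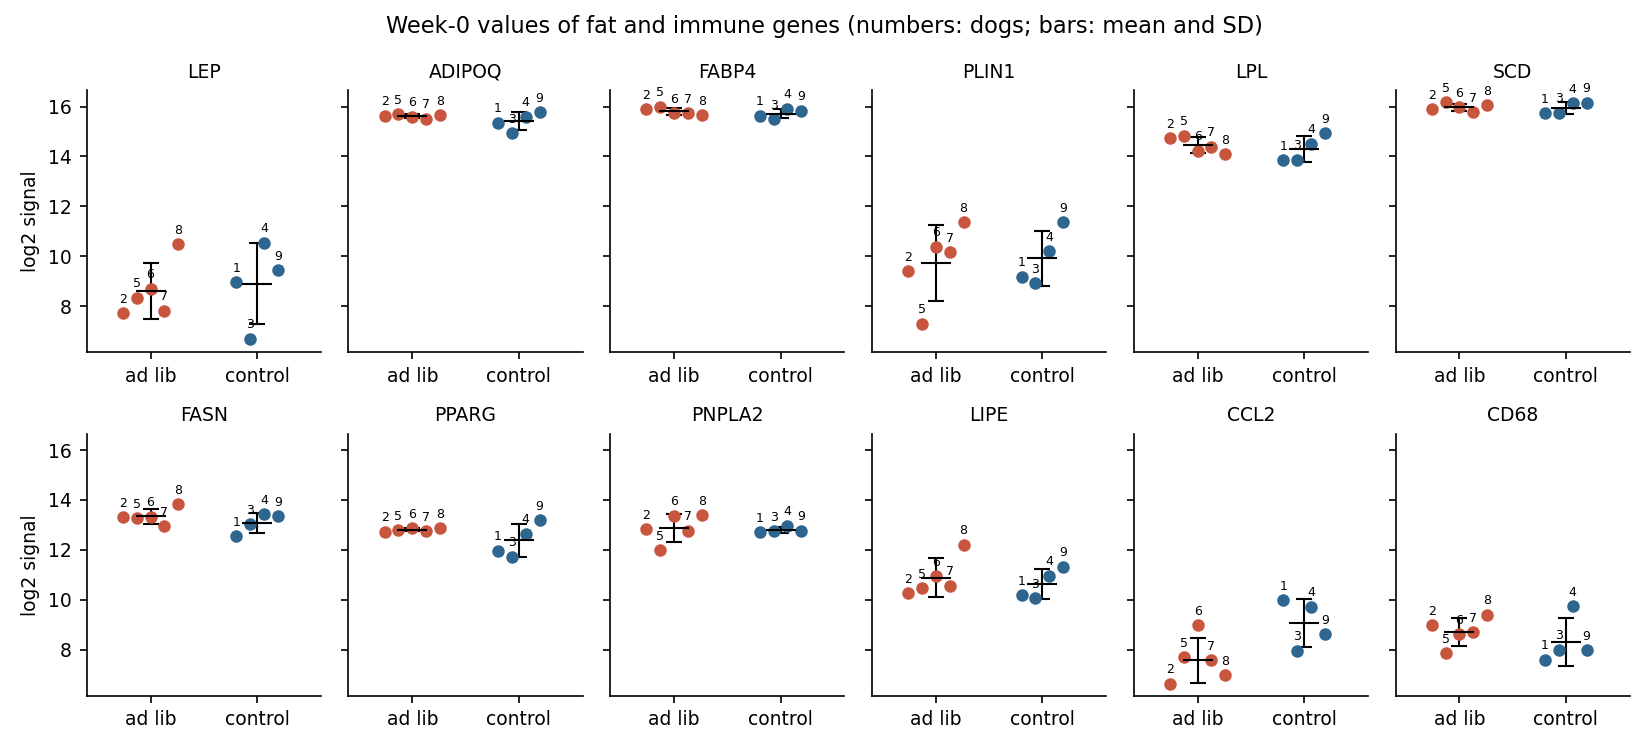
Log2 signal (y axis) of 12 fat and immune genes in each of the 5 ad libitum dogs (left of each panel) and the 4 control dogs (right), with dog numbers, and the mean and SD of each group as bars. Each gene is shown at its brightest probe set. ADIPOQ, FABP4 and this SCD probe set are tight, while LEP runs between 6.69 and 10.54 and PLIN1 between 7.29 and 11.37 with the groups overlapping. The dimmer SCD probe sets, not shown, spread more widely.

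The genes that varied most once the muscle mean was regressed out were led by DLA88, MRPS30 and PAXX. Among the 15 outside the muscle list with the largest residual SD were 5 that were low on the array of dog 8 alone: EMC2, TAF1D, CCDC18, SLU7 and HNRNPA2B1. EMC2, a subunit of a complex that inserts proteins into the endoplasmic reticulum membrane, had log2 signals of 9.92, 10.39, 8.27, 9.77 and 3.43 in ad libitum dogs 2, 5, 6, 7 and 8, against 8.14, 9.02, 8.82 and 9.97 in control dogs 1, 3, 4 and 9. Dog 8 was near background and no other dog was below 8. On the other EMC2 probe set dog 8 was also lowest, at 7.39, with 9.06 to 10.88 in the other dogs. HNRNPA2B1, an RNA-binding protein of splicing, had a probe set at 4.12 in dog 8 and 8.28 to 11.03 in the other dogs, and its brightest probe set had 10.58 in dog 8 and 11.78 to 13.39 elsewhere.

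The low EMC2 value was not seen again in dog 8. At weeks 4, 8, 12 and 24 EMC2 had 10.94, 8.14, 9.28 and 10.73 in dog 8, and it was as low as 4.24 in dog 6 at week 4 and 3.35 in control dog 3 at week 12. None of the 5 genes passed the test for differences between dogs at later weeks (adjusted p between 0.347 and 0.857). Of the 100 probe sets with the largest residual SD, dog 8 was the lowest dog on 39 and the highest on 11.

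Whether dogs differ stably was therefore tested on the 36 arrays of weeks 4 to 24, which played no part in the baseline spread. limma's moderated F test over dogs within their feeding group passed 357 probe sets at an adjusted p under 0.05, which is 1.57% of the 22690 tested. These 357 included 232 with a single symbol, for 185 genes. Without the 2 week-8 arrays labelled dogs 5 and 9 the number was 415, and without the arrays with muscle 116.

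The widest baseline spread, which followed the muscle signal, was not found among the probe sets that passed. None of the 100 probe sets with the largest baseline SD was among the 357. The lowest correlation of any of these 100 with the muscle mean was 0.872. The muscle mean is built from genes that lead this ranking, so high correlations were in part built in. The result thus covers probe sets that followed the muscle signal, and why they did not pass was not tested. The lowest of these 100 had an SD of 4.07 and the next below 4.04. Ranked instead by residual SD after regression on the muscle mean, a rule added after the data were seen, 14 of the top 100 were among them. These 14% stand beside the 1.57% of all tested probe sets.

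Baseline values that were not used in the test followed the dogs. For 96 of the 357 (26.9%) the dog that was highest at week 0 was also highest on average over the later weeks, beside 8.85% of all tested probe sets. For 121 (33.9%) the lowest dog was the same, beside 10.7%. At week 0 the 9 dogs spanned more than 2 log2 units on 190 of the 357 (53.2%), beside 24.7% of all tested probe sets.

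Some of these probe sets were near background in some dogs and well above it in others. A probe set of TMEM43, a nuclear envelope protein, had log2 signals of 7.08, 3.30, 3.07, 2.95 and 3.10 in ad libitum dogs 2, 5, 6, 7 and 8, against 6.59, 3.08, 3.09 and 3.05 in control dogs 1, 3, 4 and 9. Ad libitum dog 2 and control dog 1 were high and the other 7 were at background. At later weeks those 2 dogs lay between 6.76 and 8.04 and the other 7 at or below 3.92 (adjusted p = 2.03e-12). The other 2 TMEM43 probe sets lay between 10.18 and 13.15 over the 9 dogs.

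LSM8, part of the ring that binds U6 small nuclear RNA in splicing, had a probe set detected in 1 dog. Its log2 signal was 6.98 in ad libitum dog 6 and 2.33 to 2.71 in the other 8 dogs. Dog 6 had 7.53, 7.46, 6.73 and 6.97 at weeks 4, 8, 12 and 24 (adjusted p = 2.79e-09), and the test did not pass with that dog left out (adjusted p = 0.807). The other LSM8 probe sets were above 11 in every dog.

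The reverse pattern, 1 dog low, was seen for STARD3 and NPEPPS. STARD3, a cholesterol-binding protein of late endosomes, had 3.43 in ad libitum dog 2 and 6.14 to 7.44 in the other 8 dogs. Dog 2 stayed between 3.43 and 3.69 at later weeks (adjusted p = 5.96e-09; 0.0655 with that dog left out). NPEPPS, a cytosolic aminopeptidase, had 3.31 in control dog 1 and 6.90 to 8.68 elsewhere (adjusted p = 3.42e-06). The other NPEPPS probe sets were level, at 9.71 to 10.64 for the brighter one.

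CYP3A26, a canine cytochrome P450 of the family that oxidizes drugs and steroids, was high in control dog 3. Its log2 signal was 2.53, 5.18, 2.51, 2.46 and 2.61 in ad libitum dogs 2, 5, 6, 7 and 8, against 2.55, 8.21, 2.55 and 2.54 in control dogs 1, 3, 4 and 9. Control dog 3 had 7.72, 8.01, 7.07 and 6.50 at weeks 4, 8, 12 and 24, while ad libitum dog 5 had 2.74 and 2.61 at weeks 4 and 8 (adjusted p = 5.96e-09; 0.283 without control dog 3). Control dog 3 alone was high at every week.

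Others split the dogs more evenly. YPEL5, a small zinc-binding protein, had a probe set at 7.28, 10.36, 8.10, 8.04 and 8.26 in ad libitum dogs 2, 5, 6, 7 and 8, against 10.49, 7.39, 10.46 and 10.48 in control dogs 1, 3, 4 and 9. Ad libitum dog 5 and control dogs 1, 4 and 9 formed an upper group of 4 (adjusted p = 1.38e-07). The brightest YPEL5 probe set lay between 11.15 and 12.26. GLCCI1, a glucocorticoid-induced gene, was low in ad libitum dogs 2 and 8 and control dog 3, at 4.92, 5.01 and 4.63, and 6.26 to 8.95 elsewhere (adjusted p = 5.93e-09).

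For PON3 and ARV1 more than 1 probe set passed. PON3, a paraoxonase that hydrolyses lactones, had 6.18, 8.24, 3.95, 4.83 and 8.51 in ad libitum dogs 2, 5, 6, 7 and 8, against 4.51, 5.08, 7.07 and 9.03 in control dogs 1, 3, 4 and 9 (adjusted p = 3.62e-07). Its second probe set, with control dog 9 highest at 6.14 as well, also passed (adjusted p = 2.22e-05). ARV1, a regulator of sterol and lipid balance in the endoplasmic reticulum, was lowest in control dog 1 on both of its probe sets, at 4.86 and 2.44 (adjusted p = 3.67e-06 and 2.14e-05).

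The remaining members of the 15 with the smallest p were TKTL1, UTP11, CHMP4C, ACAP2, LOC478000 and GALNT12. TKTL1, a transketolase-like protein, was high in ad libitum dog 5 and control dogs 3 and 9 at 8.23, 8.16 and 7.43, and 4.50 to 5.36 elsewhere. CHMP4C, of the membrane-cutting ESCRT machinery, was 4.31 in ad libitum dog 2 and 6.43 to 9.11 elsewhere. Of the 15 genes, 10 passed under every alternative run. LSM8, STARD3, CYP3A26, UTP11 and GALNT12 each failed under 1.

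Some genes from the residual SD ranking showed the same on and off form. MRPS30, a mitochondrial ribosomal protein, had a probe set at 8.56, 3.00, 9.93, 2.96 and 9.80 in ad libitum dogs 2, 5, 6, 7 and 8, against 10.04, 10.32, 9.60 and 8.73 in control dogs 1, 3, 4 and 9. Ad libitum dogs 5 and 7 were at background (adjusted p = 6.68e-04; 1.55e-12 without the 2 week-8 arrays labelled dogs 5 and 9). Its other probe sets were even, at 10.46 to 11.09 for the brightest.

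PAXX, a factor that joins broken DNA ends, had a probe set at 3.37 in control dog 9 and 10.60 to 12.49 in the other 8 dogs. At week 8 the array labelled control dog 9 had 12.22 and the array labelled ad libitum dog 5 had 3.67. The test gave an adjusted p of 0.101 with all 36 arrays and of 5.94e-12 without those 2. The 2 arrays were left out because of values such as these, so the smaller p is no independent support. The same holds for MRPS30, CHPT1 and DLA88. The other PAXX probe set was 8.79 in control dog 9 and 9.12 to 10.35 in the other 8 dogs. CHPT1, which makes phosphatidylcholine, had a probe set at 8.74, 8.74, 2.64, 7.58 and 3.47 in ad libitum dogs 2, 5, 6, 7 and 8, against 6.98, 7.51, 2.62 and 3.12 in control dogs 1, 3, 4 and 9 (adjusted p = 0.0238; 0.00152 without those 2 arrays). Its other 3 probe sets were above 9 in every dog.

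DLA88 encodes the heavy chain of a dog MHC class I molecule, a protein known to vary in sequence between dogs. One of its probe sets had 4.08, 15.29, 12.70, 11.65 and 12.69 in ad libitum dogs 2, 5, 6, 7 and 8, against 15.24, 13.03, 12.32 and 5.04 in control dogs 1, 3, 4 and 9. Ad libitum dog 2 and control dog 9 were low (adjusted p = 0.0834; 4.53e-05 without the 2 week-8 arrays). The brighter DLA88 probe set was even, at 13.61 to 14.41.

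Of all 9090 genes at their brightest probe set, 142 (1.56%) passed. LEP was the 1 adipocyte gene of 19 among them (adjusted p = 0.0315), with control dog 3 lowest at baseline, at 6.69, and between 7.63 and 8.56 at later weeks. Of the 17 antigen presentation genes 3 passed: the class II genes DLA-DRA, DLA-DQA1 and CD74, with adjusted p-values of 0.0304, 0.0270 and 0.0414. At week 0 ad libitum dogs 2 and 8 had the highest values for all 3. Of the 10 complement genes, C2, C6 and C7 passed (adjusted p = 0.0494, 0.0381 and 0.0130). Without the 2 week-8 arrays labelled dogs 5 and 9, C2 and C6 did not pass (adjusted p = 0.0748 and 0.0717), and C7, LEP and the 3 class II genes did (adjusted p of 0.0154 to 0.0473). LEP passed under 10 of 18 alternatives and these 6 genes, chosen because they passed, under 6 to 15.

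**Figure D4:**
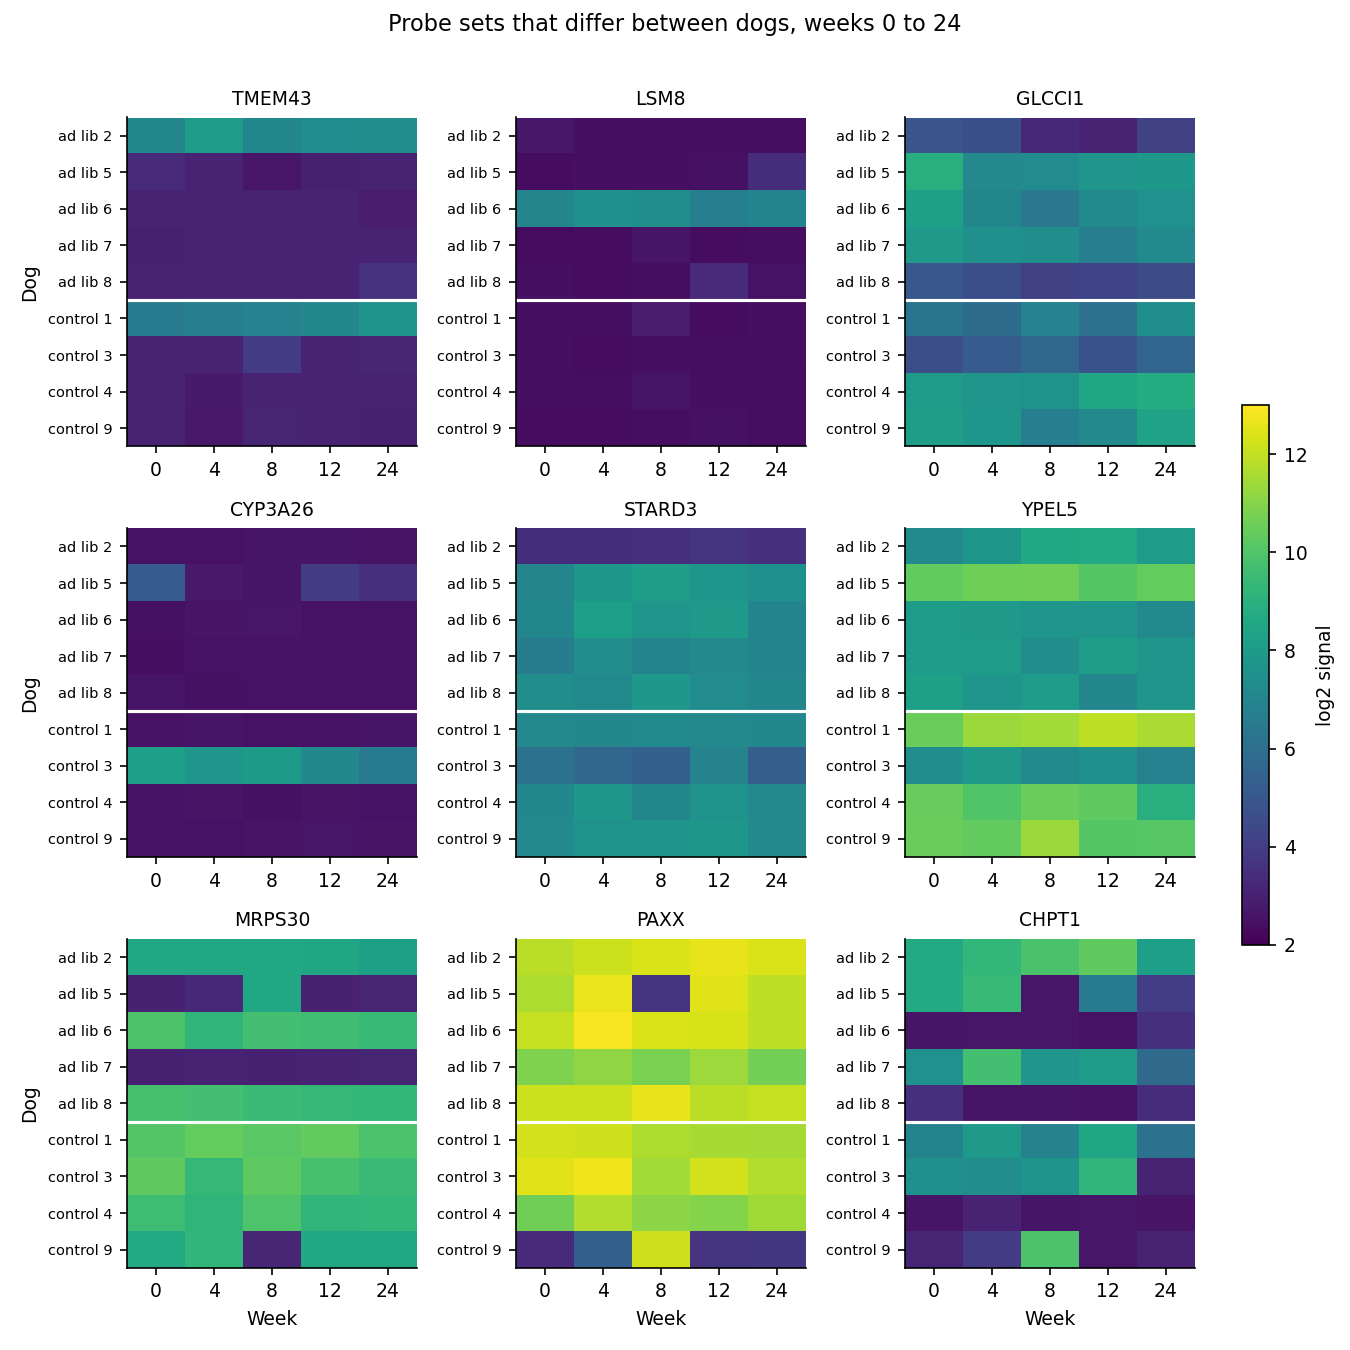
Log2 signal (colour scale) of 9 probe sets in each dog (rows, ad libitum above control) at weeks 0, 4, 8, 12 and 24 (columns). Most rows keep their colour across the weeks, apart from some cells such as CYP3A26 in ad libitum dog 5 and from those where the week-8 values of ad libitum dog 5 and control dog 9 stand against their own rows, as for MRPS30, PAXX and CHPT1.

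The groups themselves were compared at week 0 within a model of all 45 arrays that holds batch and dog. Its SEs, intervals and p-values rest on 1 estimate of spread per probe set over all 45 arrays, not on the week-0 dogs alone. Where a probe set spread more widely at week 0 than later, its SE and p are too small and its interval too narrow. None of the 22690 probe sets passed an adjusted p of 0.05 in limma, which is 0.0%, and the smallest adjusted p was 1.00. At an unadjusted p under 0.05 there were 312 probe sets, which is 1.38%: 211 higher in the ad libitum group (0.93%) and 101 lower (0.445%). In 33 probe sets every ad libitum dog lay above every control dog (0.145%), and in 14 every ad libitum dog lay below (0.0617%), together 0.207% of the probe sets tested. Without the array of dog 8, with 4 dogs in each group, 303 lay above and 315 below, together 2.72%. Without the 10 arrays with muscle, which leaves 2 dogs in each group, 1 probe set passed; HPN, the serine protease hepsin, which the rule for naming genes did not pick, differed by 2.60 there (SE 0.41, adjusted p = 0.0337), beside 0.56 over all arrays.

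The size of difference that these arrays could miss can be given. The median 95% interval reached 0.625 log2 units to either side of the estimate. For 14953 probe sets (65.9%) the whole interval lay within 1 log2 unit of no difference. In simulated data with the same design, 33% of changes of 1 log2 unit and 87% of changes of 2 units were recovered. Among unchanged simulated probe sets 4.73% had an unadjusted p under 0.05, beside 1.38% of the probe sets tested in the real arrays. The simulated p-values thus did not behave like the real ones, and the recovery rates may not hold for these arrays. A count of 0 therefore does not show that the groups were alike.

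For the fat genes fixed for naming, the 95% intervals all included 0. The difference, ad libitum minus control, was 0.07 for LEP (SE 0.74, 95% interval −1.43 to 1.56) and 0.25 for ADIPOQ (SE 0.20, −0.17 to 0.66). The LEP sign held in 14 of 23 alternative fits, with differences between −1.62 and 0.30, and the ADIPOQ sign in all 23. For PLIN1 the sign held in 9 of the 23, with differences between −0.74 and 0.56. The difference was 0.08 for FABP4 (SE 0.13) and 0.14 for LPL, the lipase that takes up fat from blood lipoproteins (SE 0.37). SCD differed by 0.05 (SE 0.15) on its brightest probe set, and by 0.34 (SE 0.67) and 0.37 (SE 0.71) on the other 2. FASN, the fatty acid synthase, differed by 0.27 (SE 0.58). PPARG differed by 0.49 (SE 0.41), PNPLA2, the first lipase of triglyceride breakdown, by 0.20 (SE 0.42) and LIPE, the second, by 0.51 (SE 0.52).

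The immune genes fixed for naming did not pass either. Among the 13 fat and immune genes CCL2 had the largest difference in size, −1.61 (SE 0.92, unadjusted p = 0.0889, adjusted p = 1.00). Within the 3 batches that held both groups, the CCL2 difference was −2.40, −0.15 and −1.66. CD68, a macrophage lysosome protein, differed by 0.50 (SE 0.68).

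By list, no measured group of genes held a member with an unadjusted p under 0.05. That was so for all 19 adipocyte, 18 fatty acid synthesis, 16 macrophage, 23 matrix and 31 oxidative phosphorylation genes tested, and the count over all 9090 genes was 75 higher and 31 lower. The median difference was 0.16 for adipocyte genes, 0.29 for fatty acid synthesis, 0.33 for lipolysis and its control, and −0.15 for oxidative phosphorylation, beside 0.02 over all genes. Each of the 9 lipolysis genes tested had a positive difference, beside 4914 of the 9090 genes. So did 17 of 19 adipocyte, 15 of 18 fatty acid synthesis and 4 of 31 oxidative phosphorylation genes. Genes of a list share the same 9 arrays, so these counts are not independent. The lipolysis list means overlapped between the groups, at 8.12 to 9.01 in ad libitum dogs and 7.88 to 8.66 in control dogs. Oxidative phosphorylation genes had their highest list means, 13.33 and 13.64, in ad libitum dog 7 and control dog 3, where the muscle means were also highest.

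The probe set with the smallest p was one of NNAT, neuronatin, an imprinted membrane protein found in fat, brain and endocrine cells. Its log2 signal was 14.06, 13.52, 14.09, 13.61 and 14.69 in ad libitum dogs 2, 5, 6, 7 and 8, against 11.81, 12.92, 13.35 and 12.45 in control dogs 1, 3, 4 and 9. Every ad libitum dog was above every control dog. The groups averaged 13.99 ± 0.47 in ad libitum dogs and 12.63 ± 0.66 in control dogs (SD). The fitted difference was 1.72 (SE 0.46, 95% interval 0.79 to 2.66, unadjusted p = 6.94e-04, adjusted p = 1.00), and within the 3 batches that held both groups it was 1.80, 1.15 and 2.24.

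The other 2 NNAT probe sets were also higher in the ad libitum group on average, but overlapped. Their differences were 1.26 and 1.04 (unadjusted p = 0.0233 and 0.0285). On the dimmer of them, control dog 9 at 10.22 lay above ad libitum dog 5 at 9.90 and above ad libitum dog 7. On the NNAT probe set with the smallest p, the sign was the same with dogs left out in turn and under all other settings. That probe set was chosen by its p in these same arrays. Its steady sign, its values within batches and its lack of overlap are therefore no independent support.

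JARID2, a partner of the Polycomb complex that silences genes, had 3 tested probe sets. All 3 were higher in the ad libitum group, by 0.56, 0.49 and 0.61 (unadjusted p = 0.00352, 0.00574 and 0.00366). On one of them the groups did not overlap, with 10.69, 10.28, 10.62, 10.70 and 10.36 in ad libitum dogs 2, 5, 6, 7 and 8, against 10.18, 9.93, 10.18 and 10.03 in control dogs 1, 3, 4 and 9. None had an adjusted p under 0.05.

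The other genes with the smallest p on the higher side were TGS1, LOC611215, TUT4, PDXDC1, COL27A1 and UPB1, with differences of 0.62 to 1.68. UPB1, the last enzyme of uracil and thymine breakdown, had 7.09, 6.82, 8.42, 7.13 and 8.48 in ad libitum dogs 2, 5, 6, 7 and 8, against 5.46, 7.00, 6.57 and 5.79 in control dogs 1, 3, 4 and 9. Control dog 3 overlapped with ad libitum dog 5. PDXDC1, a decarboxylase-like protein, did not overlap between the groups, but its probe set lay between 2.81 and 4.12 and was above 4 in ad libitum dogs 6 and 7 alone. TGS1, which caps small nuclear RNAs, was 6.46, 6.43 and 6.35 in ad libitum dogs 2, 5 and 7, and 5.01 and 5.14 in dogs 8 and 6, against 4.99 to 5.22 in the control dogs.

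On the lower side, 4 of the 8 genes with the smallest p had their high values on muscle arrays. IP6K3, an inositol phosphate kinase of muscle, had 2.03, 2.02, 2.01, 4.82 and 2.04 in ad libitum dogs 2, 5, 6, 7 and 8, against 4.92, 7.64, 2.03 and 2.02 in control dogs 1, 3, 4 and 9. Its difference was −1.74 (SE 0.61, unadjusted p = 0.00730), and −0.01 without the arrays with muscle. Within the 3 batches that held both groups it was −0.10, −5.62 and 0.02. The brightest IP6K3 probe set lay between 10.42 and 11.93 and differed by −0.26 (SE 0.23). ASB12 and MOGAT1 were also highest in control dogs 3 and 1 and ad libitum dog 7, with differences of −1.42 and −1.56. MOGAT1 in control dog 3 was 8.33 at week 0 and averaged 3.41 over the later weeks. ANK1 was highest in control dogs 3 and 1, with a difference of −1.08. Without the arrays with muscle these 3 differences were −0.03, −0.09 and −0.20. Without control dog 3 the differences of IP6K3, ASB12, MOGAT1 and ANK1 were −0.35, −0.24, −0.22 and −0.36.

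The remaining 4 on the lower side were STMP1, RIC8B, SLC35G2 and LOC475806. LOC475806 was lower in every ad libitum dog, at 9.51, 9.47, 9.65, 9.16 and 9.76, against 10.06, 10.11, 10.26 and 9.81 in control dogs 1, 3, 4 and 9 (difference −0.49, SE 0.19, unadjusted p = 0.0159). STMP1, a short mitochondrial membrane protein, was highest in control dog 3 at 12.49, and its difference was −0.54 (SE 0.17). RIC8B, a chaperone of G protein subunits, differed by −0.54 (SE 0.19), again with control dog 3 highest at 9.36.

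**Figure D5:**
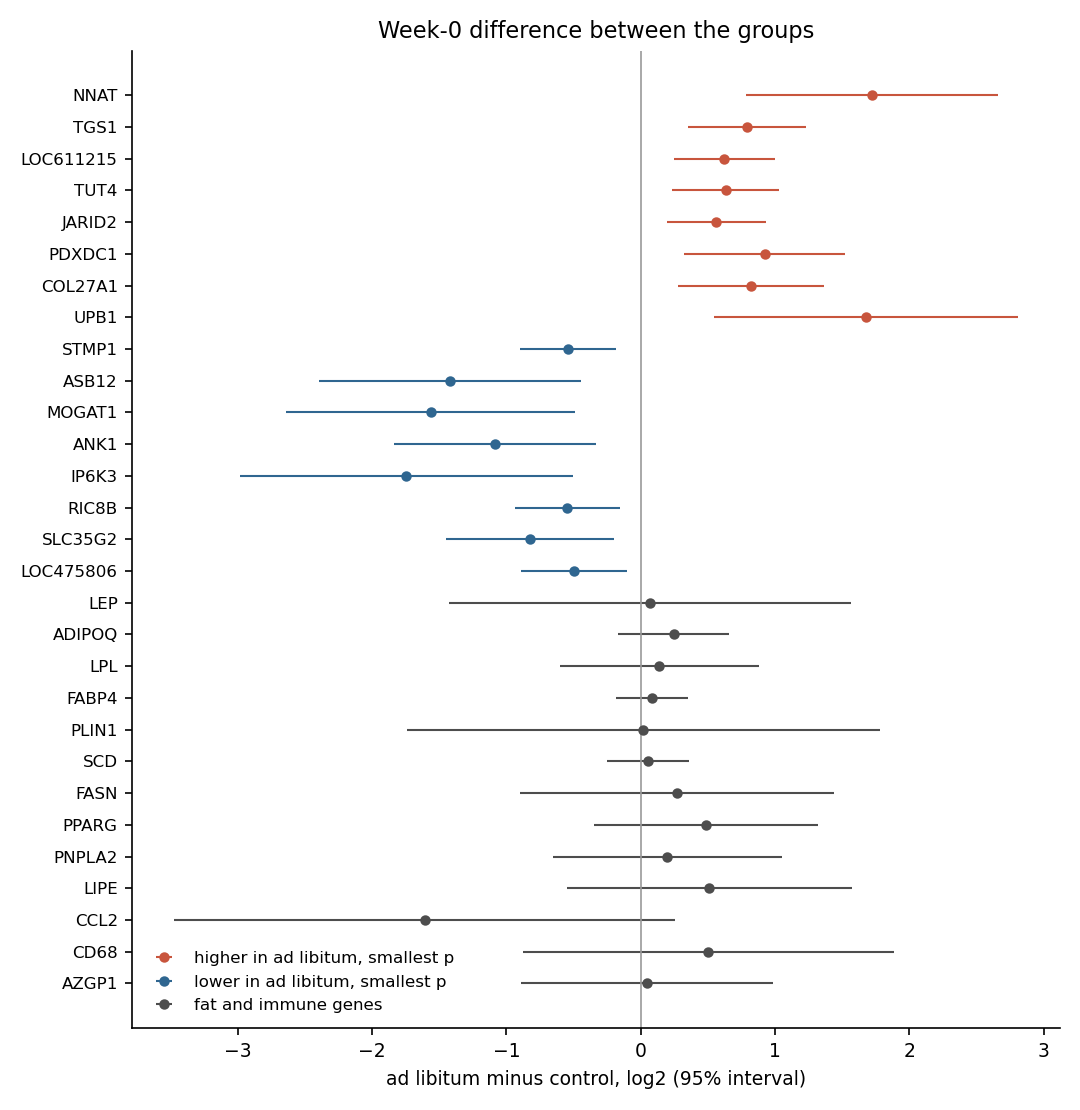
Week-0 difference, ad libitum minus control, on the log2 scale (x axis, points with 95% intervals) for the 8 genes of each sign with the smallest p and 13 fat and immune genes (rows). Intervals of the 16 genes chosen by p exclude 0 by that choice and none passes adjustment, while those of the 13 fat and immune genes all include 0.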

How the data were processed

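Fat from 9 dogs at 5 time points was measured on 45 Affymetrix canine arrays, 1 array per dog and time, from Trizol total RNA labelled by the 1-cycle 3′ method, per the labels' protocols. Each array is a separate dog at a given week. The deposited values are GCRMA expression values per probe set, per the submitters' processing notes. They are taken as log2 because they ran between 0.55 and 17.51 at week 0. Not given in the sources used here are the GCRMA version, filters and whether batches were corrected.

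From these log2 values deposited by the authors, 111 Affymetrix control probe sets were set aside, which left 42924 of 43035. The 22690 above 4 on at least 4 of the 45 arrays were tested. Of these, 16915 had 1 gene symbol, 271 several and 5504 none, and only probe sets with 1 symbol were named. Probe sets whose type allows matches to several transcripts were kept. Of the 16915, 16015 had a gene ID in the RefSeq table, and 0 symbols differed from it. Precision is limited by the number of arrays.

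The week-0 difference was a contrast in a limma 3.58.1 fit (R 4.3.3, statmod 1.5.0) of all 45 arrays, with 10 group-by-week means, batches 1 to 5 coded to sum to 0 (batch 6 held only week 24), and the dog as a random block. The block links arrays of the same animal id, and its correlation was 0.00562. The fit had 31 residual degrees of freedom. Dog differences were limma's moderated F test of 7 dog terms on the 36 later arrays, with 8 group-by-week means and batch, and 17 residual degrees of freedom. P-values were adjusted by Benjamini-Hochberg across all 22690, and 0.05 was the threshold. Ranks, SDs and exact tests used Python 3.11.15, numpy 2.4.6, pandas 2.3.3 and scipy 1.17.1. On simulated data of the same size, dog effects with an SD of 1 log2 unit were drawn for 200 probe sets. Of these probe sets 79% were recovered, with 7 false calls, and 4 false calls were made in the week-0 comparison.

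The members and gene lists were chosen with earlier results of these data known. The genes named were 13 fat and immune genes, the 20 with the highest mean, the 15 with the largest SD, the 15 outside the muscle list with the largest residual SD on the muscle mean, the 8 with the smallest SD above a mean of 8, 8 genes higher and 8 lower with the smallest p in the week-0 difference, the 15 with the smallest p in the dog test, the brightest and most variable gene of each list, and genes named at later weeks. Alternatives changed the arrays, batch and block terms, filter, normalization, array weights and covariates, and left out each dog in turn.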

Additional observations from a re-analysis of the deposited data

Results flagged for a closer look

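Each value here lay apart from the rest of its group of 4 or 5 dogs at week 0, by Dixon's test at the 95% level. Of 148 group values tested, 20 (13.5%) stood apart, where chance gives about 1 in 20, and 2 of the 20 were values of dog 8. Many of the genes were chosen for differing between dogs, so this share is no independent count.

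Among the ad libitum dogs, dog 2 was highest for TMEM43 at a log2 signal of 7.08 and lowest for STARD3 at 3.43. Dog 5 was highest for CYP3A26 at 5.18, for TKTL1 at 8.23 and for ANK1 at 3.66. Dog 6 was highest for LSM8 at 6.98. Dog 7 was highest for ASB12 at 4.58, for MOGAT1 at 4.23, for IP6K3 at 4.82 and for UTP11, a protein of ribosome assembly, at 5.93. Dog 8 was highest for AZGP1 at 3.51 and for ARV1 at 8.04.

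Among the control dogs, dog 1 was highest for TMEM43 at 6.59 and for ACAP2, which acts on the small G protein Arf6, at 5.01. Dog 3 was highest for CYP3A26 at 8.21 and for UTP11 at 4.36, and lowest for STARD3 at 6.14 and for YPEL5 at 7.39. Dog 4 was highest for the mean of the mast cell list at 5.28, and dog 9 for TGS1 at 5.22. The AZGP1 and ANK1 values lay below the detection level of 4.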

How the results depend on the processing

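No probe set passed the adjusted threshold for the week-0 difference under any of the alternatives run, apart from the 1 found without the arrays with muscle transcripts. The number with an unadjusted p under 0.05, 312 as reported, was 133 with the week-0 arrays only, 187 with no batch term, 823 with no filter, 194 with a filter at 6 and 1147 with array weights. It was 770 without the week-0 array of dog 8, an alternative chosen after seeing the data. With each dog left out in turn it lay between 187 and 949, and it moved by over 1.5 times without ad libitum dogs 6 (187), 7 (606) and 8 (949) and control dogs 1 (497), 3 (205), 4 (562) and 9 (494). Without the block on dog it was 311.

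The number of probe sets that differed between dogs, 357 as reported, was 746 with no batch term, 194 with no filter and 116 without the arrays with muscle. With dogs left out it lay between 119 and 1076, and it moved by over 1.5 times without ad libitum dogs 2 (119), 5 (231), 6 (162), 7 (133) and 8 (150) and control dogs 1 (1076) and 3 (204). Of the 100 with the largest SD, 0 passed in each leave-one-out fit. The ranking by residual SD, chosen after seeing the data, gave 14, which was 9 with no filter, 7 without the muscle arrays and 7 to 17 with dogs left out (9 without dog 2, 7 without dog 7 and 9 without dog 8). The number with an SD above 1 was 1300 without dog 8's array and 618 without the muscle arrays, both added after seeing the data. The number of probe sets whose groups did not overlap, 47 as reported, was 618 without dog 8's array, also added after seeing the data. With fewer dogs a larger share separates by the split alone. The 3′ minus 5′ difference between the groups lay between −0.434 and 0.421 for actin and between −0.00221 and 0.316 for GAPDH with dogs left out. Causes of these shifts were not tested.

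For 60 named genes, 1203 of 1356 week-0 differences under 23 alternatives had the reported sign, 27 genes kept 1 sign throughout, 0 passed, and the lowest adjusted p was 0.144. Signals near background have no reliable order.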
